A study of Mus musculus with 15 samples.

Results

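The 7 α-tubulin genes Tuba1a, Tuba1b, Tuba1c, Tuba3a, Tuba3b, Tuba4a and Tuba8 were followed through RNA-seq of mouse embryonic stem cells (ESC) that had lost the chromatin protein Hmga1. They were found by gene symbol in the count tables of both experiments and are 7 of 21662 genes listed there. The set was selected on the measured values, because Tuba3a was higher in the Hmga1 knock-out (KO) line than in WT, so the levels of Tuba3a and of its copy Tuba3b in that experiment are a description and carry no test. The other members in that experiment, and all members in a second experiment on other samples, were tested.

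α-Tubulin pairs with β-tubulin into the dimer from which microtubules are built, the filaments of the mitotic spindle, of cilia and of the cell's transport tracks. Mammals carry several α-tubulin genes whose proteins are nearly alike but whose tissues of expression differ. Tuba1a is best known from the developing brain, Tuba1b and Tuba1c are found in most dividing cells, Tuba4a is abundant in mature neurons, muscle and platelets, Tuba8 is known from muscle and testis, and Tuba3a and Tuba3b, which encode the same protein, are known for expression in testis.

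All cells came from 1 parental ESC line, grown with serum and LIF, that also expresses the biotin ligase BirA. The first experiment had 3 WT samples (a, b, c), 2 of the KO line, in which Cas9 caused a frameshift at an intron-exon junction of Hmga1, and 2 each of KO lines that received a biotin-tagged Hmga1 or Hmga2 cDNA under the CAG promoter (labelled Hmga1 add-back and Hmga2 add-back). The second had 3 WT samples and 3 of a line that lost the Hmga1 coding sequence, made with the guide of the KO line and a guide on either side of it (full deletion). Each genotype was 1 line, so cultures of a line are the replicates, and a property of the line cannot be told apart from the loss of Hmga1.

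Counts per sample summed to between 13465399 and 34952136 in the first experiment and between 14832310 and 21708492 in the second. The letters a, b and c of the first experiment are batches. The study grouped its batches by day of library preparation and by flow cell. Batch c holds WT only, and the fits carried the letter as a term. In the second experiment WT b stood apart, with a TMM factor of 0.752 against 0.986 to 1.12 in the other 5 samples, and the values of the members there are given with and without it. Hmga1 in the full deletion was at 3.42% to 3.51% of WT within each letter. In KO, whose frameshift leaves most of the gene in place, it was at 46.7% in a and 34.8% in b. In the samples labelled Hmga1 add-back the counts on Hmga1 lay on either side of KO (84.8% in a, 127.7% in b), with a log2 difference of 0.04 (standard error 0.17). Whether reads of the tagged cDNA are counted there was not tested. By western blot the study reports that Hmga1 protein in this add-back came back to about the WT level. Protein is not measured in these files. The Hmga2 add-back carried 13.2 and 16.0 times the Hmga2 level of KO.

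The copies Tuba3a and Tuba3b lie far apart on chromosome 6, and how well short reads separate them sets what their counts can mean. In NCBIM37 (mm9) Tuba3a spans chr6:125228292-125236060 on the minus strand and Tuba3b chr6:145564277-145569999 on the plus strand, each with 5 exons. Their coding sequences, 1350 bases each, differ at 41 positions (96.96% identical), and the longest run that their exons share without a difference is 179 bases. A stretch of exon 3 in which they can be told apart (coding bases 317 to 363, counted from the A of the start codon) follows in the sense direction, read from NCBIM37. The capitals mark the 8 positions at which the copies differ.
Tuba3a, chr6:125232383-125232429, minus strand: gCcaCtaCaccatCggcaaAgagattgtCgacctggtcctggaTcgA
Tuba3b, chr6:145567342-145567388, plus strand: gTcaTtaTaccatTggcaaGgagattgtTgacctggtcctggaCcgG

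Every stretch of 47 bases in the exons of each member, the length of a read after trimming, was looked up in the whole genome. Of the Tuba3a stretches 60.2% occurred nowhere else, 38.2% occurred also in Tuba3b, 0.547% in Tuba8 and 5.63% within the span of Mapk6, a kinase gene. Of the Tuba3b stretches 66.0% were unique and 31.6% were shared with Tuba3a. No stretch of either copy occurred in Tuba1a, Tuba1b, Tuba1c or Tuba4a. A read from a shared stretch was placed at random in one of its places by the study's aligner, so a part of each copy's counts may come from the other, and their sum is given as well.

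The Tuba1 genes were less separable, with 25.7% unique stretches in Tuba1a, 13.2% in Tuba1b and 35.1% in Tuba1c. Their coding sequences were 97.55% to 98.37% identical to each other, and they shared stretches with each other and with processed copies such as Gm17383, Gm14150 and Gm5620. Counts of single Tuba1 genes are therefore uncertain. Tuba4a (98.0% unique) and Tuba8 (99.6%) could be read almost without sharing.

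**Figure D1:**
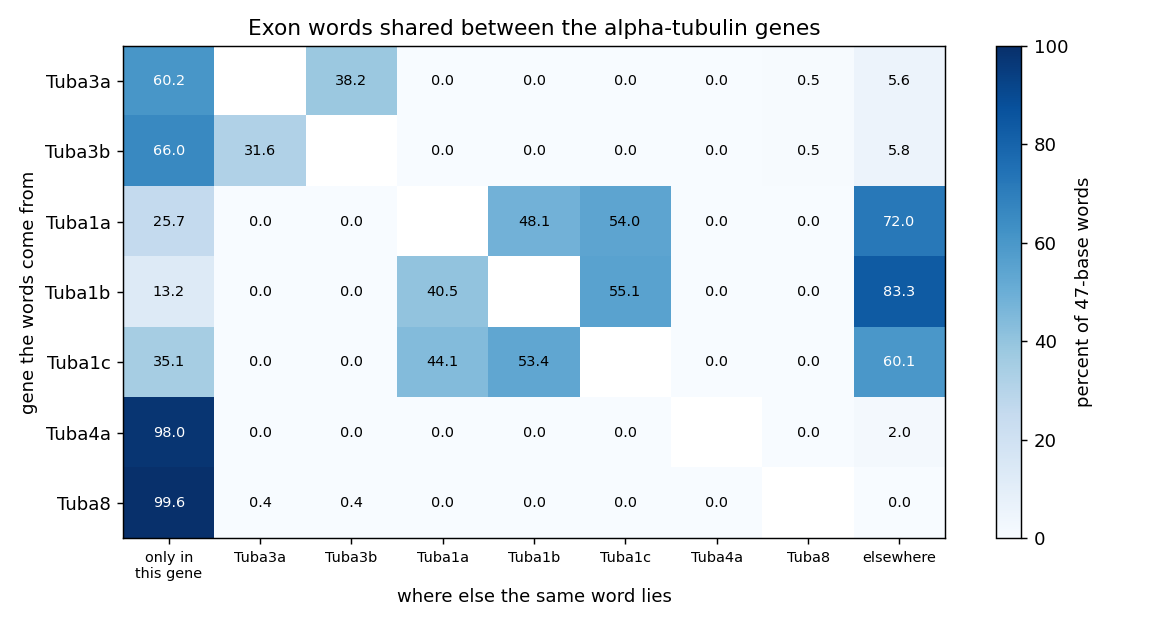
Percent of the 47-base stretches of each gene's exons (rows) that occur only there, in another α-tubulin gene or elsewhere in the genome (columns). The sharing splits the family into the Tuba3 pair, the 3 Tuba1 genes, and Tuba4a and Tuba8, which have 98.0% and 99.6% unique stretches.

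The 250 bases before the start of Tuba3a and of Tuba3b are shown because the counts on both were higher in the same lines. Reads of shared stretches pass between the copies, so whether each copy itself rose was not tested. The windows are RefSeq sequences on GRCm38.p6, in the sense direction, and the capitals mark each match to the CCAAT box (CCAAT searched on both strands).
Tuba3a, chr6:125286082-125286331, minus strand: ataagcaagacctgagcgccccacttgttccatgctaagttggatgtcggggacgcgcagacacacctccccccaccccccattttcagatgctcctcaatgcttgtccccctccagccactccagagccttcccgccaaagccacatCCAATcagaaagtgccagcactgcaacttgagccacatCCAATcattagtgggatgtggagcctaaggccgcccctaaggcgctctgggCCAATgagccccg
Tuba3b, chr6:145615713-145615962, plus strand: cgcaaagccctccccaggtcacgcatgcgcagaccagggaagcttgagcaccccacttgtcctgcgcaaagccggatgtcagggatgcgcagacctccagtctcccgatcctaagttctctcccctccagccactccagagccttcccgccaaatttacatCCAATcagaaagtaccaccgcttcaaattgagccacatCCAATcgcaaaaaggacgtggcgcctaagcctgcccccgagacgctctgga

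These windows were 79.4% identical over the 218 bases that align, against 49.2% to 59.5% between Tuba3a and the other 5 members. Tuba3a held 3 CCAAT matches, which begin 102, 64 and 13 bases before the start, and Tuba3b held 2, at 89 and 51 bases. Of 32851 windows of the same length 33.9% held at least 1 match and 2.79% held 3 or more. A TATA box (TATAAA, both strands, in 12.4% of windows) had no match in any of the 7 members. Both Tuba3 windows had an AT content of 41.6%, at percentile 31.1 of all windows (median 47.6%), and the exons of the 7 members ranged from 43.75% AT in Tuba1c to 47.06% in Tuba1a and Tuba8.

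Tuba3a, the member by which the set was chosen, had low levels in WT, with 138, 40 and 90 counts in a, b and c. These are 4.36, 3.10 and 3.74 CPM (counts divided by the library's effective size, scaled by TMM and given on the usual CPM scale). KO had 1312 counts in a and 220 in b, or 36.8 and 16.7 CPM. Each KO sample lay above the 3 WT samples, and the KO samples differed from each other by more than the WT samples did.

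In the samples labelled Hmga1 add-back Tuba3a stood at 25.5 CPM in a and 11.5 in b. The Hmga2 add-back had 30.1 in a and 17.5 in b. All 4 add-back samples thus lay above the 3 WT samples and within or below the range of KO. Within a batch, KO over WT was 8.43-fold in a and 5.39-fold in b, the line labelled Hmga1 add-back 5.84-fold and 3.72-fold, and the Hmga2 add-back 6.90-fold and 5.65-fold.

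Tuba3b, the copy on the other strand, had 35, 26 and 45 counts in WT a, b and c (1.11, 2.02 and 1.87 CPM). KO had 400 in a and 88 in b (11.2 and 6.69 CPM). The add-backs were close to each other between batches, at 6.38 and 6.45 CPM for Hmga1 and at 8.09 and 8.24 for Hmga2. No sample of these 3 lines overlapped WT. The ratio of KO to WT was 10.1 in a, where WT has 35 counts, and 3.32 in b.

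Summed over the copies, the level was 5.40 ± 0.249 CPM in WT (SD, n = 3), 35.7 ± 17.4 in KO, 24.9 ± 9.82 in the line labelled Hmga1 add-back and 32.0 ± 8.79 with Hmga2 (SD, n = 2 each). The fit with the batch term gave a log2 fold change against WT of 2.72 in KO (standard error 0.23), 2.22 in the line labelled Hmga1 add-back (0.23) and 2.60 with Hmga2 (0.23), as a description. These comparisons share the WT samples. In bulk RNA more cells with the transcript and more transcript per cell cannot be told apart.

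The add-backs were also set against KO itself, again as a description and sharing the KO samples. The sum was lower by a log2 change of -0.50 in the line labelled Hmga1 add-back (standard error 0.20), at 66.4% of KO in a and 76.9% in b. In the Hmga2 add-back it was -0.12 (0.20), at 79.5% of KO in a and 110.1% in b, so the batches lay on either side of KO.

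**Figure D2:**
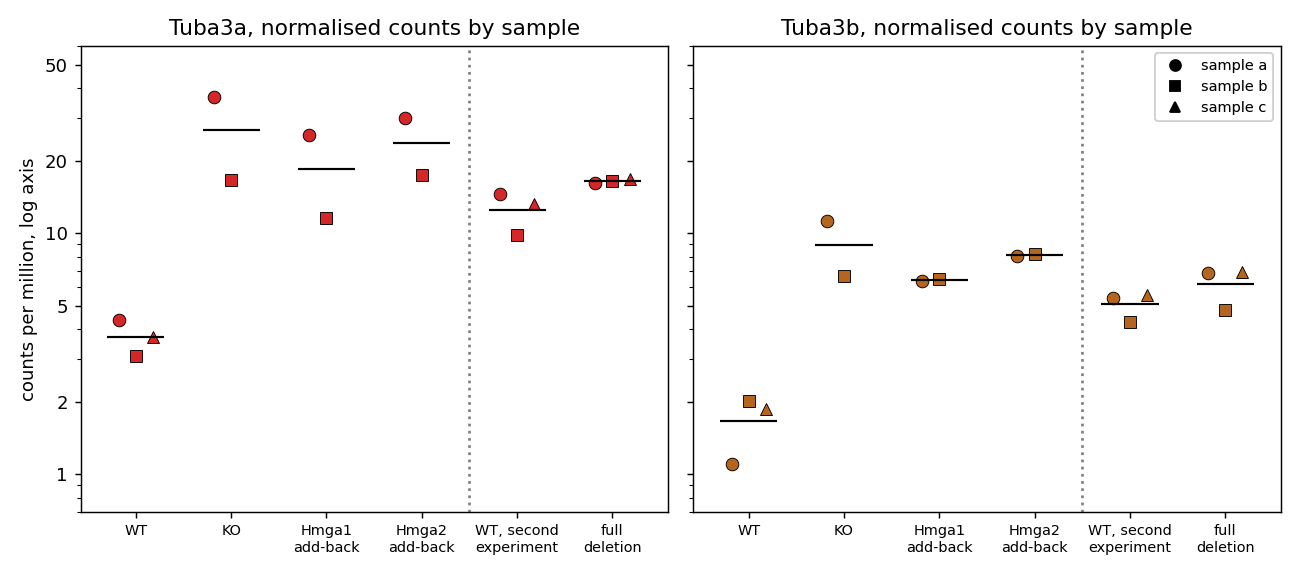
Tuba3a and Tuba3b in each sample, in TMM-scaled CPM on a log axis, with symbols for samples a, b and c and a line at each group's mean. The 3 WT samples of the first experiment lie below all other samples, and the WT samples of the second experiment lie close to the full deletion.

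The remaining members were much more abundant in WT than the Tuba3 pair and were nearly level between KO and WT. Tuba1a had 204, 203 and 167 CPM in WT and 190 and 169 in KO, and Tuba1b had 274, 241 and 208 in WT and 231 and 225 in KO. Tuba1c, the most abundant member, had 741, 509 and 483 CPM in WT and 687 and 453 in KO. Tuba4a had 310, 268 and 285 in WT and 224 and 292 in KO. The KO samples overlapped the WT samples in each of these 4 genes, with KO b of Tuba1c and KO a of Tuba4a below the lowest WT sample.

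The log2 fold change of KO against WT was -0.18 for Tuba1a (standard error 0.14), -0.18 for Tuba1b (0.15), -0.14 for Tuba1c (0.14) and -0.18 for Tuba4a (0.15). Adjusted p ranged from 0.617 to 0.735 (quasi-likelihood test of edgeR, adjusted by Benjamini-Hochberg over 13912 genes). The first rule for a call was an adjusted p under 0.01 with at least a 2-fold change, and the second an adjusted p under 0.05. Of these 4 members 0 were called in KO by either rule of edgeR, 0 by DESeq2 or limma-trend, and 0 had an unadjusted p under 0.05. Over all genes the rules called 0.0216% and 0.0647%, and 12.6% had an unadjusted p under 0.05. Without WT a the differences of Tuba1b (0.04) and Tuba4a (0.08) turned positive.

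Against WT the 4 members were lower in the line labelled Hmga1 add-back by a log2 change between -0.31 (Tuba1b) and -0.22 (Tuba4a), with adjusted p from edgeR of 0.403 to 0.523. In the Hmga2 add-back they lay between -0.39 (Tuba1b) and -0.21 (Tuba4a), with adjusted p from edgeR of 0.229 to 0.458. Both rules called 0 of 4 in each add-back with edgeR, DESeq2 and limma-trend. At an unadjusted p under 0.05 edgeR had 0 of 4 in the line labelled Hmga1 add-back and 3 of 4 (Tuba1a, Tuba1b, Tuba1c) in the Hmga2 add-back, beside 13.3% and 16.9% of all genes. DESeq2 had 1 of 4 (Tuba1b) and 3 of 4. Over all genes the rules called 0.0144% and 0.0431% in the line labelled Hmga1 add-back. For the Hmga2 add-back these shares were 0.0647% and 0.165%.

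Against KO the changes of the 4 members lay between -0.14 and -0.04 in the line labelled Hmga1 add-back. Those of the Hmga2 add-back lay between -0.22 and -0.03. With edgeR, DESeq2 and limma-trend 0 of 4 were called in either, and 0 had an unadjusted p under 0.05. In the line labelled Hmga1 add-back edgeR called 0% of all genes by the first rule and 0% by the second, with 390 genes (2.8%) at an unadjusted p under 0.05, 0 called by limma-trend, and 2 called by DESeq2 by the first rule and 12 by the second. In the Hmga2 add-back the shares were 0.00719% and 0.0144%, and 5.09% at an unadjusted p under 0.05.

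**Figure D3:**
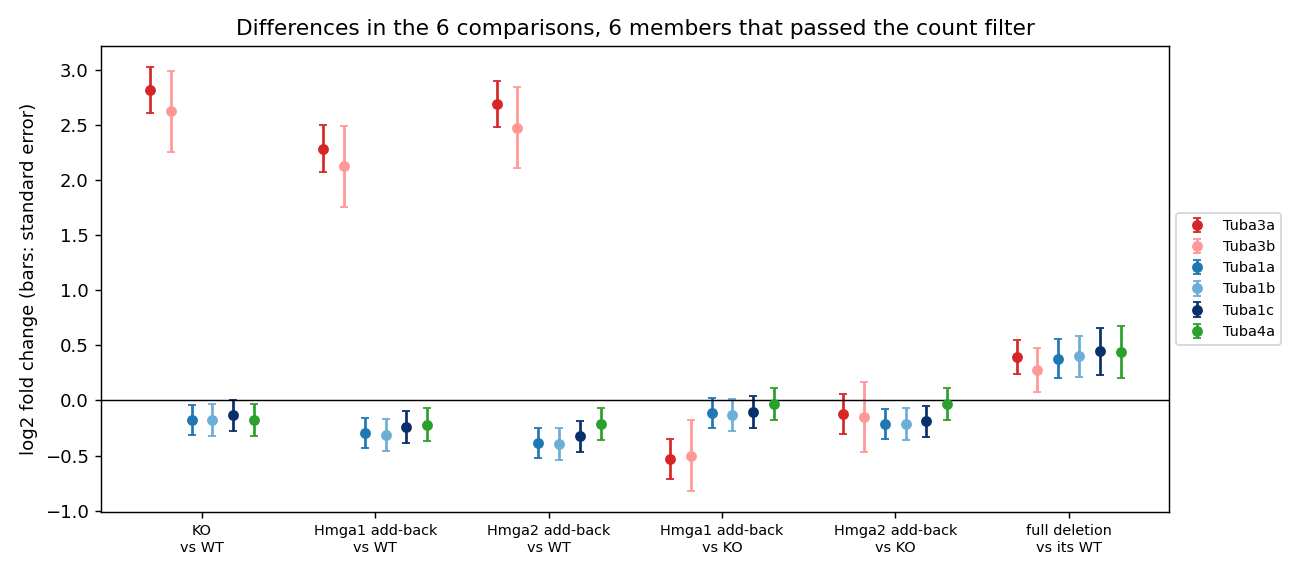
Log2 fold change with its standard error for the 6 members that passed the filter on low counts, in each of the 6 comparisons. Tuba3a and Tuba3b stand between 2.12 and 2.81 in the comparisons with the first WT group, where the other 4 members lie between -0.39 and -0.14, and all 6 members lie between 0.28 and 0.44 in the full deletion.

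Tuba8 failed the filter (a mean count of 10 over an experiment) in both experiments, so 6 of 7 members were fitted. It had 1, 1 and 5 counts in WT, 13 and 1 in KO, 12 and 1 in the line labelled Hmga1 add-back, and 12 and 4 with Hmga2. The samples of batch a other than WT had 12 or 13 counts, and those of batch b between 1 and 4. The second experiment gave it 0, 5 and 4 counts in WT and 6, 7 and 4 in the full deletion, so the groups overlapped. The count of 0 in WT a allows a level of up to 0.142 CPM (3 counts), which covers counting error only.

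The second experiment asked the same question of an independent line without Hmga1, with samples that played no part in the choice of members. Tuba3a had 307, 161 and 274 counts in WT (14.6, 9.87 and 13.2 CPM). The full deletion had 268, 382 and 370 (16.2, 16.5 and 16.8 CPM). Each full-deletion sample lay above each WT sample, by a gap smaller than the spread of the WT samples. The log2 fold change of 0.39 (standard error 0.16) had an adjusted p of 0.118 from edgeR. Without WT b it was 0.25 (adjusted p = 0.0554).

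Tuba3b had 114, 70 and 115 counts in WT (5.41, 4.29 and 5.54 CPM) and 113, 111 and 153 in the full deletion (6.83, 4.79 and 6.95 CPM). The groups overlapped, and the log2 fold change was 0.28 (adjusted p = 0.334 from edgeR), or 0.17 without WT b (adjusted p = 0.470 from edgeR). For the sum of the copies WT had 17.6 ± 3.07 CPM and the full deletion 22.7 ± 1.27 (SD, n = 3 each). Its log2 fold change of 0.36 (standard error 0.15) had an adjusted p of 0.124 from edgeR, and without WT b it was 0.23 (adjusted p = 0.0545).

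The other members had differences of the same size in the full deletion. Tuba1a had 166, 106 and 161 CPM in the 3 WT samples against 197, 178 and 188 after deletion. Tuba1b had 208, 130 and 208 against 254, 225 and 242, Tuba1c 641, 368 and 622 against 783, 702 and 734, and Tuba4a 211, 110 and 202 against 249, 222 and 237. In each of these 4 genes the lowest value was WT b, and no deletion sample overlapped WT. The share of all genes that separate like these 4 and Tuba3a was not counted.

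The log2 fold changes were 0.38 for Tuba1a, 0.40 for Tuba1b, 0.44 for Tuba1c and 0.44 for Tuba4a, with adjusted p from edgeR of 0.159 to 0.206. Of 6 members tested 0 were called by either rule with edgeR, DESeq2 or limma-trend, and 1 (Tuba3a) had an unadjusted p under 0.05 with each tool. Over all 13098 genes tested the rules called 0.0687% and 8.25%, and 37% had an unadjusted p under 0.05, so 1 of 6 lies below the share of all genes. Without WT b the changes fell to 0.20 for Tuba1a (adjusted p = 0.0101 from edgeR), 0.21 for Tuba1b (0.00828), 0.23 for Tuba1c (0.00238) and 0.19 for Tuba4a (0.0116). These pass the rule of adjusted p under 0.05 but are far under 2-fold, and without WT b that rule took 5592 of all genes (42.5%) in place of 1080.

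Whether the change in KO differed from that in the full deletion was tested for the 4 members that the choice did not use, by fitting all 15 samples jointly with an interaction term. The difference (KO minus deletion) was -0.55 for Tuba1a, -0.57 for Tuba1b, -0.57 for Tuba1c and -0.61 for Tuba4a, with adjusted p from edgeR of 0.270 to 0.304. None passed, beside 0.307% of all genes. Without WT b of the second experiment the differences lay between -0.35 and -0.33, with adjusted p from edgeR of 0.194 to 0.241, beside 4.87% of all genes past 0.05. For the Tuba3 sum the 2.72 of KO and the 0.36 of the deletion stand side by side without a test.

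The WT groups of the experiments were not at the same Tuba3 level. The sum had 5.40 ± 0.249 CPM in the first and 17.6 ± 3.07 in the second (SD, n = 3 each), a ratio of 3.26, and each WT sample of the second lay above each of the first. The ratio was 3.36 for Tuba3a and 3.05 for Tuba3b, against 0.754 for Tuba1a, 0.757 for Tuba1b, 0.941 for Tuba1c and 0.606 for Tuba4a. These samples were sequenced and scaled apart, so experiment and culture cannot be told apart here.

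A share within a library does not rest on the scaling between libraries. Tuba3a and Tuba3b together made up 0.357%, 0.418% and 0.488% of the counts on the 7 members in the WT samples, whereas KO a had 3.48% and KO b 2.01%. They made up 2.79% and 1.50% in the line labelled Hmga1 add-back. The Hmga2 add-back had 3.43% and 2.25%. The share in the second experiment was 1.60%, 1.94% and 1.55% in WT and 1.53%, 1.58% and 1.67% in the full deletion. The shares of WT and deletion thus overlapped, with WT b highest. In the first experiment KO and both add-back lines lay above WT, the line labelled Hmga1 add-back included.

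**Figure D4:**
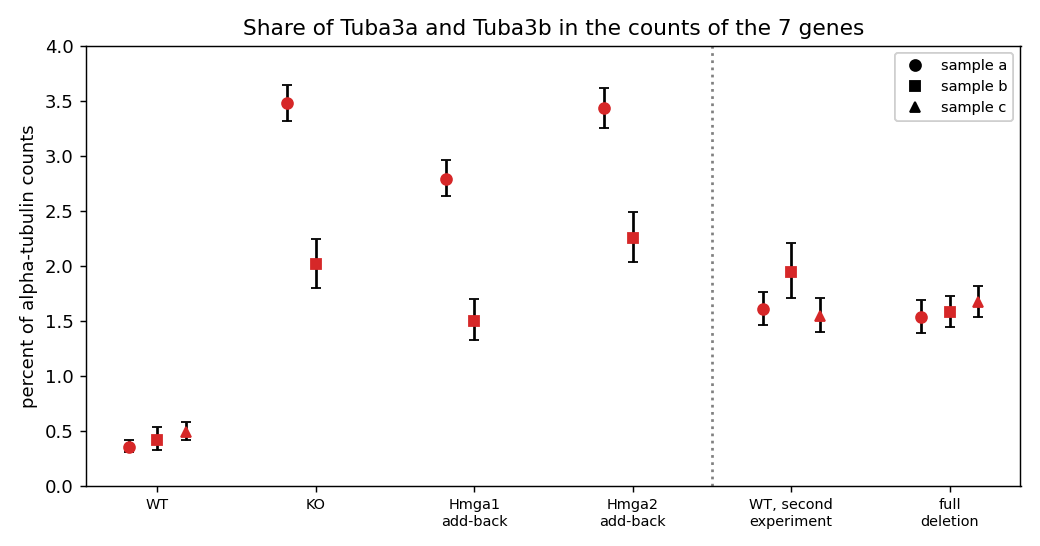
Counts on Tuba3a and Tuba3b as a percent of the counts on the 7 α-tubulin genes in each sample, with 95% Wilson intervals, which cover counting error only. The first WT group lies between 0.357% and 0.488%, and the second WT group between 1.55% and 1.94%, beside the full deletion at 1.53% to 1.67%.

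The split between the copies was read as the share of Tuba3a. Tuba3a took 79.8% (95% Wilson interval 73.2 to 85.1), 60.6% (48.5 to 71.5) and 66.7% (58.4 to 74.1) of the pair's counts in WT a, b and c. KO a had 76.6% (74.6 to 78.6) and KO b 71.4% (66.1 to 76.2). In the other 10 samples it took 64.2% to 80.0%. The ranges of all groups overlapped in this share. As 38.2% of the Tuba3a stretches occur also in Tuba3b, reads of Tuba3a alone would put counts on Tuba3b. How much of the Tuba3b counts came from Tuba3a was not tested.

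Levels of different genes can be compared only per length, here as RPKM over the deposited exon width. In WT of the first experiment Tuba1c led with 292.3 ± 72.0 RPKM, followed by Tuba1b (154 ± 21.1), Tuba4a (140.1 ± 10.2), Tuba1a (120.3 ± 13.2), Tuba3a (2.47 ± 0.418), Tuba3b (1.06 ± 0.312) and Tuba8 (0.0737 ± 0.0637, SD and n = 3 throughout). Of neighbours in this order Tuba1b and Tuba4a overlapped between samples, and the others did not. Over the longest annotated transcript Tuba1b fell to 138.1 RPKM, below Tuba4a at 140.1. Levels of the Tuba1 genes also carry the uncertainty of shared stretches. Tuba3a lay above Tuba3b in all 15 samples. In KO a, the highest, Tuba3a reached 24.4 RPKM, which was still below each Tuba1 gene and Tuba4a in that sample.

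The 7 members summed to 710.3 ± 109 RPKM in WT (SD, n = 3), 696.5 ± 84.0 in KO, 640.1 ± 27.0 in the line labelled Hmga1 add-back and 616.7 ± 15.4 with Hmga2 (SD, n = 2 each). Each of these lines overlapped WT, at 625.0 to 833.2 RPKM. In the second experiment it was 578.8 ± 156 in WT and 775.8 ± 42.9 in the full deletion (SD, n = 3 each), where WT b had 399.0 and the other WT samples 677.6 and 659.8. The Tuba1 genes together supplied 75.3% to 84.2% of this sum in every sample, and Tuba4a 13.4% to 22.3%.

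**Figure D5:**
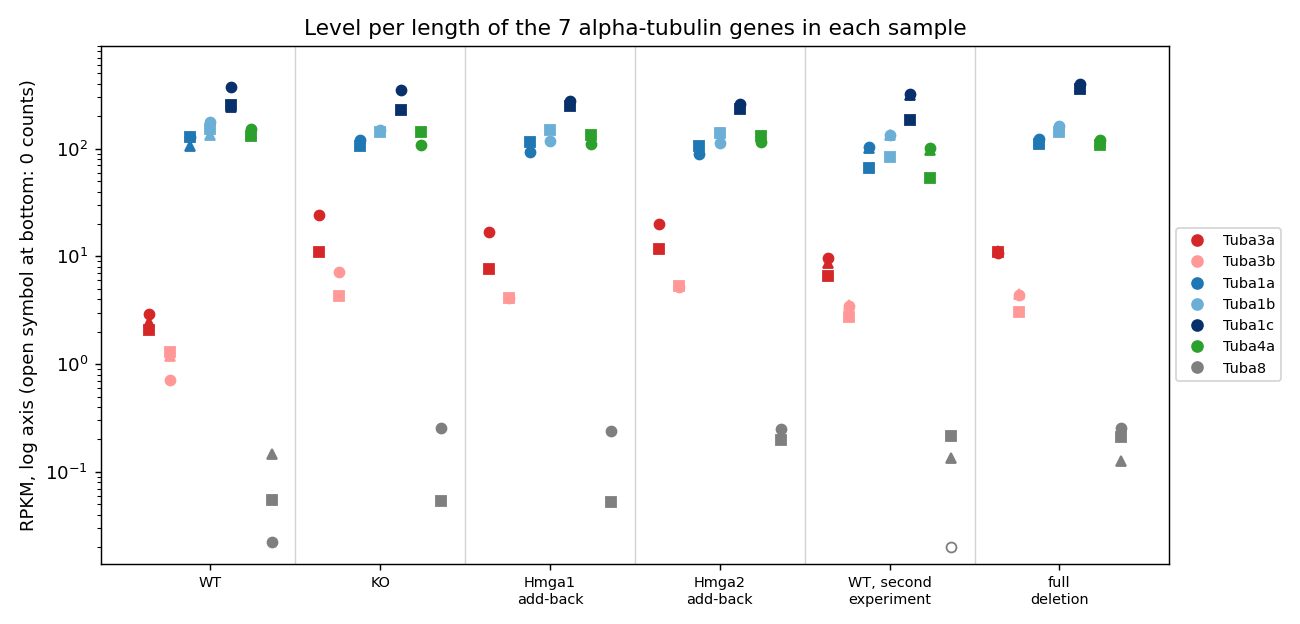
RPKM of the 7 members in each sample on a log axis, with colours for genes and symbols for samples a, b and c. The Tuba1 genes and Tuba4a keep their place above 50 RPKM in every sample, while Tuba3a moves from between 2.06 and 2.89 RPKM in the first WT group to 24.4 in KO a.

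The genes most like the Tuba3 sum were looked for over the 8 samples of batches a and b, as log2 CPM centred within each batch, among 13910 genes. Pearson's r was 0.998 for Epx, the eosinophil peroxidase, 0.996 for Calml4, a calmodulin-like protein, 0.993 for Map2k6, a kinase of the p38 pathway, 0.991 for C2cd5 and 0.985 for Shb, an adaptor protein. With 8 samples that share their batches these values are a description. Spearman's rho was 0.881 to 1 for these 5 genes. The order rests on the centring. Uncentred over all 9 samples, r was 0.991 for Map2k6 (rank 1) and 0.985 for Epx (rank 2), but 0.942 for C2cd5 (rank 34), 0.899 for Shb (rank 148) and 0.81 for Calml4 (rank 591).

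Epx, at 0.449 CPM in WT and 1.81 in KO, and Calml4, at 2.64 and 11.4, also stood higher in the second WT group, at 1.85 and 17.3 CPM. Map2k6 had 13.6 CPM in the first WT group and 14.2 in the second, C2cd5 58.2 and 54.6, and Shb 3.98 and 2.38. In the full deletion Calml4 was lower by a log2 change of -1.59 (adjusted p = 0.0339 from edgeR) and C2cd5 higher by 0.49 (adjusted p = 0.0383 from edgeR). Epx (0.01), Map2k6 (-0.36) and Shb (0.51) had an adjusted p from edgeR of 0.0822 or more. Without WT b the change was -1.15 for Calml4 and 0.43 for C2cd5, both past an adjusted p of 0.05, and Epx (-0.02), Map2k6 (-0.24) and Shb (0.48) had an adjusted p from edgeR of 0.0777 or more.

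Neighbours on the chromosome were read for both copies. In NCBIM37 the nearest gene measured beside Tuba3a is Vamp1, a vesicle fusion protein, on the lower side and Ltbr, the lymphotoxin β receptor, on the higher side. Vamp1 had a log2 fold change of 0.23 in KO (adjusted p = 0.863 from edgeR) and Ltbr of -0.29 (adjusted p = 0.736 from edgeR). Beside Tuba3b stand 1700073E17Rik, which failed the filter on low counts, and Rassf8, at 0.46 (adjusted p = 0.506 from edgeR). Of the 18 genes that start within 250 kb of Tuba3a 17 were tested in KO and 15 in the full deletion, and of 3 near Tuba3b 2 were in each. In KO against WT edgeR, DESeq2 and limma-trend called 0 of 19 by either rule. Over all genes edgeR called 0.0216% and 0.0647%, and DESeq2 1.43% by the second rule. At an unadjusted p under 0.05 edgeR had 1 of 19 (Scarna10), beside 12.6% of all genes. In the full deletion edgeR and limma-trend called 0 of 17 and had 6 at an unadjusted p under 0.05, close to the 37% of all genes. DESeq2 called 4 of 17 (Chd4, Tapbpl, Vamp1 and Bhlhe41) by the second rule, beside 24.7% of all genes, and without WT b edgeR called 6 of 17, beside 42.5%.

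The wider tubulin pathway was read through 6 lists: 8 β-tubulins, the partners of α-tubulin in the dimer, 5 other tubulins, 6 folding cofactors, which assemble the dimer, 8 genes of the γ-tubulin ring complex, which seeds microtubules, 21 enzymes that modify α-tubulin, and 22 stathmins and microtubule-associated proteins. In KO against WT edgeR called 0 genes of these lists by either rule, and DESeq2 and limma-trend called 0 too. At an unadjusted p under 0.05 edgeR had 1 β-tubulin higher, 1 cofactor lower, 1 modifying enzyme higher and 2 lower, and 3 stathmins and microtubule-associated proteins higher and 3 lower. These are 11 of 64 tested, beside 12.6% of all genes. The medians of the 6 lists lay between -0.05 and 0.11 on the log2 scale, beside -0.01 over all genes. Tubb5, the most abundant β-tubulin, had 838.5 RPKM in WT and 854.2 in KO, Tubb4b 313.2 and 269.2, and Stmn1, which sequesters free dimers, 443.7 and 446.6.

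In the lines labelled Hmga1 and Hmga2 add-back against WT edgeR and limma-trend called 0 genes of the 6 lists by either rule. At an unadjusted p under 0.05 edgeR had 1 β-tubulin and 2 modifying enzymes higher and 1 modifying enzyme lower in the line labelled Hmga1 add-back. In the Hmga2 add-back it had 2 β-tubulins, 2 modifying enzymes and 2 stathmins and microtubule-associated proteins higher, and 1 of each lower. These are 4 and 9 of 64, beside 13.3% and 16.9% of all genes. DESeq2 called Mapt, the microtubule-binding protein tau, in the Hmga2 add-back by the second rule and no other gene of these lists, where it called 2.36% of all genes. Against KO the 3 tools called 0 in either add-back, and edgeR had 2 genes at an unadjusted p under 0.05 in the line labelled Hmga1 add-back and 6 with Hmga2, of 64 each and beside 2.8% and 5.09% of all genes.

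In the full deletion 5 genes of the 6 lists passed an adjusted p of 0.05 with edgeR, and 0 were called by the first rule with edgeR or limma-trend and 1 with DESeq2. By that rule DESeq2 called 463 of all 13098 genes tested. Among 7 β-tubulins tested Tubb6 was higher (log2 fold change 0.49, adjusted p = 0.0494 from edgeR). Among 17 modifying enzymes Agtpbp1, which trims glutamates from tubulin, was lower (-0.73, adjusted p = 0.0441 from edgeR). Among 19 stathmins and microtubule-associated proteins Mapre3, a plus-end binding protein, and Camsap3, a minus-end binding protein, were higher (1.64 and 0.43) and Mapt was lower (-0.76), with adjusted p from edgeR of 0.0444, 0.0388 and 0.0212. These are 1 of 7, 1 of 17 and 3 of 19, beside 8.25% of all genes. None of the 4 other tubulins, 6 cofactors or 8 ring complex genes tested passed with edgeR. At an unadjusted p under 0.05 edgeR had 1, 3 and 0 genes of these lists. Over the 6 lists it had 23 of 61, beside 37% of all genes. DESeq2 called 13 of 61 genes of the 6 lists by the second rule, beside 24.7% of all genes: Tubb2b, Tubb3, Tubb4b, Tubb6, Tbca, Tbce, Ttll5, Agtpbp1, Mapre3, Mapt, Stmn2, Camsap2 and Camsap3.

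Without WT b the genes past an adjusted p of 0.05 with edgeR in the full deletion were 5 of 8 β-tubulins, 2 of 4 other tubulins, 3 of 6 cofactors, 3 of 8 ring complex genes, 5 of 17 modifying enzymes and 11 of 19 stathmins and microtubule-associated proteins. Together these are 29 of 62, beside 42.5% of all genes. Tubb6 (0.41), Tubb4a (1.28), Tubb4b (-0.37), Tubb3 (-0.39) and Tubb2b (-0.28) were the β-tubulins among them, 2 higher and 3 lower.

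Markers of the cell types that the cultures could hold were read beside these values. The 10 markers of pluripotent cells summed to 5586 to 6189 CPM in WT and 6428 to 6493 in KO, with none at 0, Pou5f1, Sox2 and Nanog included. They summed to 4719 to 7663 CPM in the second WT group and 4474 to 4536 in the full deletion. The 10 fibroblast markers, which feeder cells would bring, summed to 558.2 to 788.4 CPM in WT and 706.8 to 732.8 in KO. Col3a1, Postn, Dcn and Lum were at 0 in KO, as they were in the second WT group. In the first WT group they were close to 0 too, at 0.0523, 0.0064, 0.0266 and 0.0267 RPKM. WT a and WT c held counts on 19677 and 19531 genes, against 17227 in KO a. The 10 neural markers summed to 159.8 to 186.8 CPM in WT and 127.5 to 175.8 in KO. Of 6 neural markers tested in KO edgeR called 0 by either rule. At an unadjusted p under 0.05 it had 0 higher and 2 lower, beside 12.6% of all genes. Sox1 (log2 fold change -1.37) and Pax6 (-0.96) had the lowest values. DESeq2 called Sox1 by the second rule, as it did 1.43% of all genes. In the second experiment the pluripotency, fibroblast and neural sums did not overlap between the groups. In the first experiment the pluripotency sums did not overlap between KO and WT, nor did the germ cell sums given below. How often sums of other genes separate was not counted. The fibroblast markers summed to 669.7 to 777.2 CPM in WT and 848.3 to 1101 in the full deletion. Fn1 and Vim, by far the most abundant of them, went opposite ways. Fn1 went from 55.8 RPKM in WT to 83.9 in the full deletion (adjusted p = 0.0594 from edgeR). Vim went from 83.8 to 43.4 (adjusted p = 0.0171 from edgeR). The neural markers summed to 173.9 to 183.6 CPM in WT and 146.2 to 147.4 in the full deletion. Tubb3, the most abundant of them and also on the β-tubulin list, went from 67.2 RPKM in WT to 54.6. The log2 fold changes of the 6 tested ranged from -0.94 to -0.04, with Pax6 at -0.06 and Sox1 at -0.04. Of these edgeR called 0 by either rule.

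The 12 testis germ cell markers summed to 60.2 to 82.6 CPM in WT, 96.7 to 109.7 in KO, 76.8 to 102.5 in the line labelled Hmga1 add-back and 63.7 to 115.0 in the Hmga2 add-back. Of 8 tested in KO against WT edgeR called 0 by either rule, 5 were higher and 0 lower at an unadjusted p under 0.05, beside 12.6% of all genes, and DESeq2 called Sycp3, a protein of the meiotic chromosome axis, by the second rule, as it did 1.43% of all genes. The median log2 fold change was 0.87, beside -0.01 over all genes. The sperm protamine gene Prm1 was at 0 in all 15 samples. In the second experiment the list summed to 73.1 to 116.1 CPM in WT and 84.3 to 89.2 in the full deletion, where Mael (1.05) was higher and Ddx4 (-0.93) and Sycp1 (-1.52) were lower, with adjusted p from edgeR of 0.0248 to 0.0413. These are 3 of 7 tested, beside 8.25% of all genes. Without WT b 6 of 10 pluripotency, 2 of 4 fibroblast, 1 of 6 neural and 5 of 7 germ cell markers passed an adjusted p of 0.05 with edgeR in the full deletion, beside 42.5% of all genes, against 0, 1, 0 and 3 with all samples. In each add-back against WT 29 of these markers were tested, and edgeR called 0 by either rule. At an unadjusted p under 0.05 it had 9 with Hmga1 and 8 with Hmga2, beside 13.3% and 16.9% of all genes. DESeq2 called Vim and Pax6, both lower, by both rules in the line labelled Hmga1 add-back. By the second rule it called 201 of 13912 genes there. With Hmga2 that rule took Utf1, Vim, Pax6 and Sox1, all lower, and Thy1 and Dazl, both higher, beside 2.36% of all genes. The part of these cell-type markers in the Tuba3 values was not tested.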

How the data were processed

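RNA-seq counts of 15 samples were analysed, 9 from the KO experiment and 6 from the full-deletion experiment. The authors deposited raw counts per gene for each experiment. Per their methods, ribosomal RNA was depleted, strand-specific libraries were read as 50 bases from 1 end, 3 bases were trimmed, and reads were aligned to mm9 with Bowtie through QuasR, with 1 random place for a read with several. Same-strand reads were counted on UCSC known genes. Base calling used bcl2fastq 2.17, per the submitters' processing notes.

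Genes whose counts averaged 10 or more over an experiment were fitted with edgeR 4.0.16 (TMM, quasi-likelihood test, Benjamini-Hochberg over all genes), with the letter of the sample as batch term in the KO experiment and none in the full-deletion experiment, as in the study. Samples with the same letter deviated together in the KO experiment (r from 0.154 to 0.758 in 12 pairs). In a group of 2 samples the deviations from the mean mirror each other. Pairs a and b between such groups thus repeat the same r, and the 12 pairs are not independent. DESeq2 1.42.0 and limma 3.58.1 (log2 CPM, prior count 2) were alternatives. CPM are TMM-scaled, and RPKM divide them by the deposited width. The fits were tested on simulated counts. Cultures are the replicates, and p-values measure the spread between cultures of 1 line.

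The members and lists were chosen with earlier results of these data known. The text names all members, the 5 genes most like the Tuba3 sum, and chromosomal neighbours. From the lists it names each gene past an adjusted p of 0.05 with edgeR in the fits of all samples. Other list genes, such as Pou5f1, Sox2 and Nanog, were named by no fixed rule. The values of lists, neighbours, like genes and the interaction without WT b, the interaction fit and the share of α-tubulin counts were added after seeing the data. Python 3.11.15 drew the figures.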

Additional observations from a re-analysis of the deposited data

How the results depend on the processing

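None of the members tested (Tuba1a, Tuba1b, Tuba1c and Tuba4a, and in the second experiment also the Tuba3 pair) was called by the first rule under the alternatives of the scaling, the filter on low counts, the tool, the samples fitted or the block. The log2 fold changes of Tuba3a and Tuba3b against the first WT group stayed positive in each. Where the letters pair the samples (first experiment), the fit with no replicate block gave 2.73 for the Tuba3 sum in KO and changed no call of a member, while genes past an adjusted p of 0.05 in KO went from 9 to 23. In the second experiment the letters do not pair the samples (r from -0.055 to 0.07), and the replicate block gave 0.38 for the sum (adjusted p = 0.118 from edgeR), with 396 genes past 0.05 in place of 1080.

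Some differences near 0 changed sign. With summed counts only, Tuba4a in the Hmga2 add-back against KO was 0.013. With 1 sample left out, KO against WT ranged from -0.36 to 0.035 for Tuba1b, -0.30 to 0.012 for Tuba1c and -0.42 to 0.076 for Tuba4a. For Tuba4a against WT the samples labelled Hmga1 add-back ranged from -0.45 to 0.035 and the Hmga2 add-back from -0.44 to 0.057. Against KO those labelled Hmga1 add-back ranged from -0.29 to 0.052 for Tuba1a, -0.30 to 0.0090 for Tuba1b, -0.26 to 0.040 for Tuba1c and -0.20 to 0.12 for Tuba4a, and the Hmga2 add-back from -0.18 to 0.13 for Tuba4a. In the full deletion without WT b, Epx went from 0.01 to -0.017. None of these passed a rule.

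Counts over all genes moved more. With adjusted p under 0.05 and no fold limit, edgeR took 9 genes in KO against WT, 93 with no filter on low counts, 68 with only the groups compared, and between 1 (without KO a) and 736 (without WT b) with a sample left out, and DESeq2 took 199. In the full deletion edgeR took 1080, 664 with summed counts only and between 3 and 5592 (without WT b) with a sample left out, and DESeq2 took 3232. By the first rule the counts were 3 (edgeR) and 76 (DESeq2) in KO against WT and 9 and 463 in the full deletion. Of the members tested, the 4 other than the Tuba3 pair passed an adjusted p of 0.05 with edgeR in the full deletion without WT b, and none did in KO against WT. The cause was not tested.

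Leaving out a sample moved the Tuba3 sum in KO between 2.33 (without WT a) and 3.03 (without WT b). Against KO, the sum in the samples labelled Hmga1 add-back ranged from -0.72 without KO b to -0.23 without KO a. Without KO a, Tuba3b was above KO by 0.05 in the samples labelled Hmga1 add-back and by 0.41 in the Hmga2 add-back. In the second experiment the sum ranged from 0.23 without WT b to 0.45 without WT a and was 0.62 with summed counts only. Shorter stretches of 36 bases left 52.8% of Tuba3a and 58.9% of Tuba3b unique. Counts of 40 (Tuba3a) and 26 (Tuba3b) in WT b limit the folds in batch b.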
